A study of Mus musculus with 10 samples.

Results

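The exons described here were nearly constitutive in control N2A cells, a mouse neuroblastoma line: they were longer than 27 nt, had a mean percent spliced in (PSI, how much of a gene's RNA at that place includes the exon) above 98 over the 3 control samples, and had at least 10 inclusion plus exclusion reads in all 6 samples. In all, 84312 of 107511 exons over 27 nt with enough reads met the rule, which is 78.4% of them, and the table lists 192593 exon events. The N2A cells had received 40 nM of siRNA, which was a pool that targets Qk in the 3 samples called siQk and a non-targeting pool in the 3 called siNT, were seeded at 100000 cells per well, and polyadenylated RNA was sequenced 72 h later. A further 4 samples were glutamatergic neurons differentiated in vitro from embryonic stem cells of the mouse, on day 7 in culture, with 100 uM cycloheximide for 12 h (n = 2) or untreated (n = 2). The labels call the samples biological replicates, and N2A is a cell line, so the p-values measure the spread between its cultures.

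Qk encodes Quaking, an RNA-binding protein of the STAR family that binds ACUAAY elements and is best known for its part in splicing in oligodendrocytes, muscle and other tissues. Depending on where it binds near an exon, Quaking is known to promote or to repress the exon's inclusion. A nearly constitutive exon is joined into almost every transcript, so its only large change can be a loss, and the question was which of these exons became skipped when Qk was knocked down. Because siNT values chose the exons, no exon could rise by more than 2 points, and the excess of large falls over large rises is set by the rule and is not a result.

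Sequences are shown for the 5 exons whose difference in inclusion passed the adjusted p both with the deposited reads and with whole junction reads, the first 4 lower and Akt1 higher in siQk. Not all 5 passed under other settings, as given below. The exon is in capitals, with the 20 bases of the neighbouring exon on each side of the mature transcript in lower case (GENCODE M21 transcripts, mm10, transcript strand).
Tmem134, chr19:4127760-4127836, plus strand: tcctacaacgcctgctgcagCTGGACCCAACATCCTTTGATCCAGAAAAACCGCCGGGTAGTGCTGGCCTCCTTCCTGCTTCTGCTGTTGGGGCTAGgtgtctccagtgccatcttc
App, chr16:84971408-84971461, minus strand: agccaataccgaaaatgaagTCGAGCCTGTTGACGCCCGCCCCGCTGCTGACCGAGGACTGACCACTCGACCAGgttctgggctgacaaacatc
Lsm4, chr8:70676555-70676596, plus strand: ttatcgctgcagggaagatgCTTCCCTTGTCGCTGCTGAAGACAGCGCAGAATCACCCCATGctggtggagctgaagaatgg
Mpp2, chr11:102085300-102085362, minus strand: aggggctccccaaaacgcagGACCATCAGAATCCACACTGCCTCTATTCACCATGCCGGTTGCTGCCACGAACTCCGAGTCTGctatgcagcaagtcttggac
Akt1, chr12:112657667-112657735, minus strand: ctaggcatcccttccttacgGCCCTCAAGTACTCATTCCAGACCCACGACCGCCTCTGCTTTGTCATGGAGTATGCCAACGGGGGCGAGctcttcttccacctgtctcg
The exons of App (54 nt), Lsm4 (42 nt) and Akt1 (69 nt) are wholly coding, have lengths divisible by 3, and leave the reading frame open when removed from the annotated transcript. In Mpp2 the 63 nt exon holds the start of the annotated coding sequence. GENCODE M21 gives no coding sequence to the transcripts with the 77 nt exon of Tmem134, so its frame was not followed.

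The exons lay in 9515 named genes, with a median of 6 per gene and up to 107 in Syne2, which encodes a giant nuclear envelope protein, and 8402 genes had at least 2, so that exons of a gene share its RNA and are not independent. Their median length was 122 nt (28 to 15545 nt). A length divisible by 3 was found for 38.3% of them, against 39% of the other exons over 27 nt. In GENCODE M21, 90.6% matched a wholly coding exon, 3.28% a partly coding one, 0.663% an untranslated one and 0.48% an exon of a noncoding transcript, and 5.01% matched no exon exactly. PSI was 100 in every siNT sample for 67.8%, which the rule favours.

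The targeted gene was checked first. Reads of the Qk exon events, scaled to the library's exon-event reads as CPM, were 8.18, 12.3 and 13 in siQk samples 1 to 3, against 90.8, 82.8 and 82.5 in siNT samples 1 to 3. The groups did not overlap. Qk junction coverage thus averaged 11.1 ± 2.6 CPM in siQk and 85.4 ± 4.7 CPM in siNT (SD, n = 3 each), or 13.1% of siNT (log2 difference of CPM + 0.5 −2.91, SE 0.16, limma adjusted p = 0.000483). In bulk RNA, fewer cells with a transcript and less of it per cell cannot be told apart. Exon-event reads per library ran from 26595944 to 80481173 in siQk and from 37883497 to 78479832 in siNT, and siQk samples 1 and 2 were the 2 shallowest. Of 10 neuroblastoma and neuron markers, 8 were listed, all above 1 CPM on average, with a sum of 887 to 908 CPM in siQk and 712 to 800 CPM in siNT. Of the 3 markers listed for each other cell type, Aqp4 and Slc1a2 (astrocyte), Mog (oligodendrocyte), Aif1, Ptprc and Csf1r (microglia and blood) and Col3a1 (fibroblast) averaged under 0.1 CPM, while Mbp (oligodendrocyte) and Pdgfra (fibroblast) averaged over 1 CPM. The oligodendrocyte markers summed to 3.23 to 4.96 CPM in siQk and 3.96 to 4.35 CPM in siNT, and the fibroblast markers to 1.52 to 3.26 CPM in siQk and 1.29 to 1.82 CPM in siNT; their part in the results was not tested.

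Mean PSI of the exons remained high in siQk, but a loss in an exon with few reads could go uncalled. No exon met the call for skipping, an adjusted p under 0.05 with a mean PSI at least 10 points lower in siQk than in siNT (0 of 84312), while 57 of 107511 exons over 27 nt did (0.053%). The test was limma's moderated test on log2 inclusion over exclusion reads, 0.5 being added to either number, over all 109572 exon events with enough reads, with Benjamini-Hochberg adjustment. The lowest mean PSI of any of the exons in siQk was 81.6. Mean PSI was equal in both groups for 49722 exons, lower in siQk for 17655 and higher for 16935, and the median difference was 0. Without adjustment, p was under 0.05 for 1520 exons lower in siQk (1.8%, against 1.83% of all exons over 27 nt), 337 higher (0.4%, against 1.03%) and 202 with equal means. The choice on high siNT values favours lower over higher in this count. In exons without skipping reads the log ratio also follows read number. Median reads per exon were 171, 131 and 386 in siQk samples 1 to 3, against 308, 187 and 395 in siNT samples 1 to 3. Nothing is therefore read from the direction of this count, and the part of depth was not tested. The 202 exons with equal means show no difference in mean PSI, and their share over all exons is not given. With the pseudocount scaled to each sample's reads, 0 exons met the call as well.

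**Figure D1:**
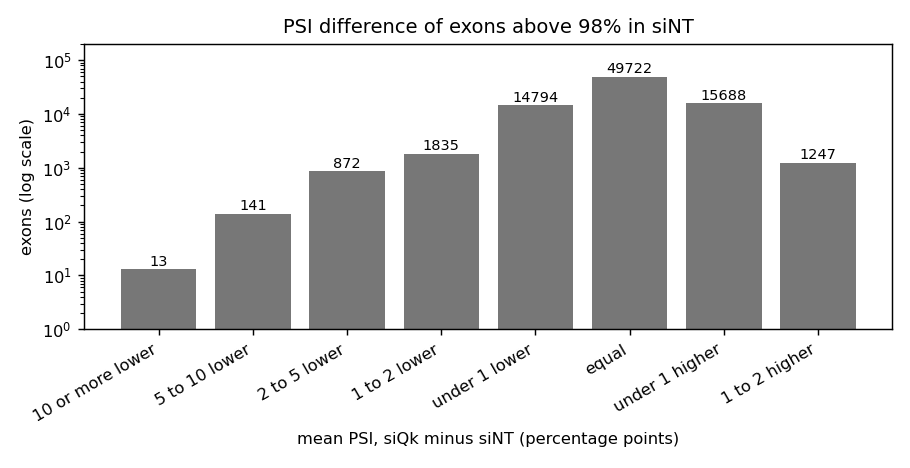
Number of nearly constitutive exons (log scale) by the difference of mean PSI, siQk minus siNT, in percentage points. In 49722 exons the means were equal, 14794 were lower by under 1 point and 15688 higher by under 1 point, while 141 were 5 to 10 points lower and 13 were lower by 10 points or more; the rule leaves no room above 2 points higher.

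Read numbers limited how small a loss could be seen. In siQk, 59162 exons (70.2%) had no read joining the neighbouring exons directly. A count of 0 over the 3 siQk samples allows skipping of up to 1.05% for the median exon of these, counting 3 reads as the limit and covering counting error only. The limit was under 10% for 99.6% and under 2% for 72.1% of them. Skipping reads made up 0.196%, 0.164% and 0.162% of the exons' junction reads (inclusion reads averaged over both junctions) in siQk samples 1 to 3, against 0.174%, 0.14% and 0.136% in siNT samples 1 to 3. The siNT shares are held down by the rule, and siQk samples 2 and 3 were below siNT sample 1.

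A siNT sample that took no part in the choice gives a fairer scale. When exons were chosen on siNT samples 2 and 3, and had 100 reads or more in every sample (49535 exons), PSI was 95 or less for 128, 91 and 20 exons in siQk samples 1 to 3, against 64 in siNT sample 1. With the choice on siNT samples 1 and 3 (49401 exons), the counts were 84, 86 and 26 in siQk, against 62 in siNT sample 2. With the choice on siNT samples 1 and 2 (49250 exons), they were 89, 95 and 34 in siQk, against 26 in siNT sample 3. The siNT sample left out of the choice fell within the range of the siQk samples in the first 2 choices and below all of them in the last. Over exons of any depth in the first choice, the median reads per exon were 172, 131 and 386 in siQk and 308 in siNT sample 1. The median was 187 in siNT sample 2 in the second choice. In the last choice it was 396 in siNT sample 3, against 172, 131 and 387 in siQk. The siQk sample with the fewest exons at 95 or less was the deepest of the siQk samples. The part of depth in these counts was not tested.

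**Figure D2:**
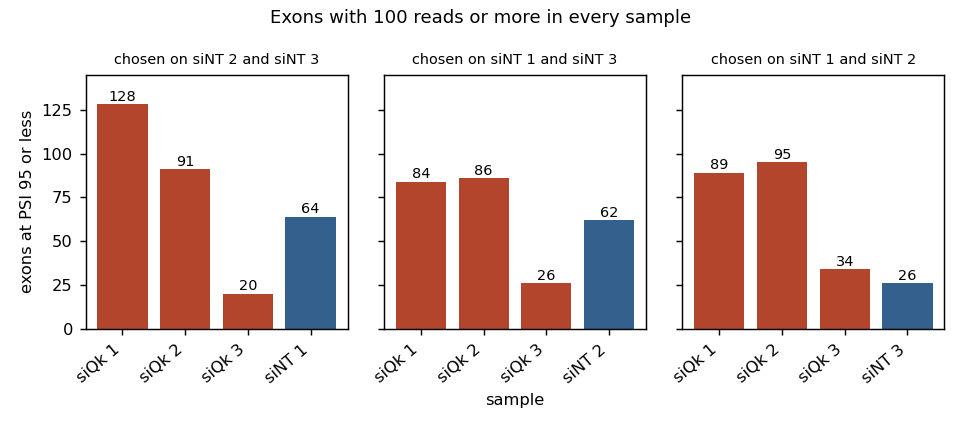
Number of exons with PSI of 95 or less among exons with 100 reads or more in every sample, for 3 choices of the exons on 2 siNT samples each; bars show siQk samples 1 to 3 (red) and the siNT sample that took no part in the choice (blue). Counts ran from 20 to 128 in siQk and from 26 to 64 in siNT.

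The exons were compared with those of other starting inclusion. Calls of lower inclusion in siQk were made for 24 of 1628 exons with siNT PSI of 10 to 50 (1.47%), 24 of 2421 at 50 to 90 (0.991%), 9 of 6191 at 90 to 98 (0.145%) and 0 of 84312 above 98. Calls of higher inclusion were made for 50, 20 and 0 exons of the first 3 classes. Among the 2238 exons at 2 to 10, 0 were called lower and 11 higher, and among the 10721 nearly silent exons at 2 or less, 0 were called lower and 1 higher. Since a call needs 10 points, no exon above 90 could be called higher and none under 10 could be called lower. The spread differed with the class: the median SD of PSI over 3 samples was 4.91 points in siQk and 4.41 in siNT for exons at 50 to 90, and 0 in both groups above 98. The difference between classes was not tested.

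**Figure D3:**
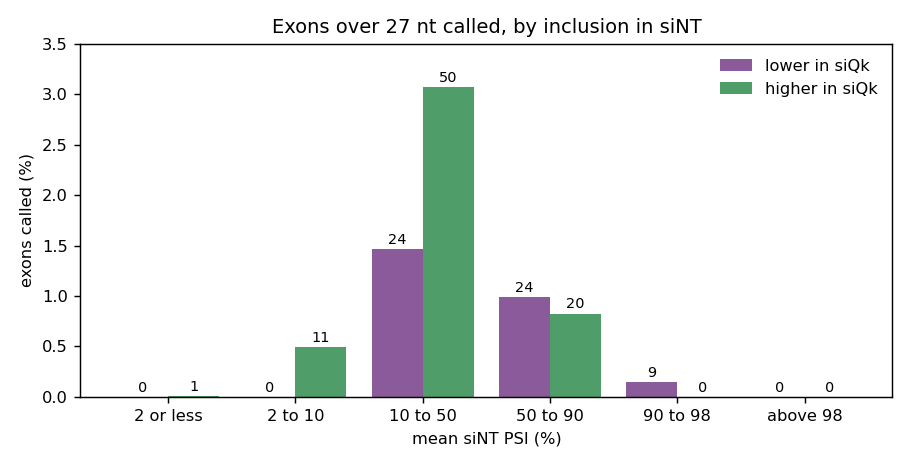
Percent of exons over 27 nt called lower (purple) or higher (green) in siQk, by mean siNT PSI; numbers above the bars are exons called. Calls number 24 lower and 50 higher at 10 to 50%, 9 lower at 90 to 98% and 0 lower above 98%; the 10-point rule leaves no room for higher calls above 90% or lower calls under 10%.

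The exons nearest to the limit of 98 had like siNT means on either side of it, as their choice sets. Their siQk means ran from 93 to 99.5. Just inside, an exon of Eml6 had a mean PSI of 93 ± 1.72 in siQk and 98 ± 3.46 in siNT (SD, n = 3 each, here and in the next sentences). An exon of Ift52 had 97.4 ± 0.962 in siQk and 98 ± 0.527 in siNT. Just outside, an exon of Chm had 97.8 ± 2.03 in siQk and 98 ± 2.17 in siNT, an exon of Bco1 had 99 ± 1.73 in siQk and 98 ± 3.46 in siNT, and an exon of Blm had 99.5 ± 0.456 in siQk and 98 ± 0.69 in siNT.

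Of 4228 exons with a mean siNT PSI above 95 and up to 98, 6 met the call for lower inclusion (0.142%). A 156 nt exon of Grip1, a scaffold of AMPA receptors (chr10:119985474-119985629), had PSI of 46.5, 60.16 and 60.7 in siQk samples 1 to 3, against 95.3, 97.58 and 98.14 in siNT samples 1 to 3, and fell by 41.2 points (adjusted p = 9.52e-38). A 31 nt exon of Ralgapa1, a subunit of a GTPase-activating protein for Ral (chr12:55612073-55612103), had 45.78, 76.86 and 55.59 in siQk, against 96.68, 96.47 and 96.84 in siNT, and fell by 37.3 points (adjusted p = 1.96e-13). In both exons every siQk sample was below every siNT sample. Exons of Pou2f2 (a transcription factor of B cells and neurons), Ankrd26 and 2310035C23Rik fell by 22.2, 21.1 and 11.6 points. All 6 lie outside the rule, the Pou2f2 exon only just, with a mean of 75.7 in siQk and 97.9 in siNT. Large falls thus passed the test from siNT means just under the limit, and none did above it.

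Below the 10-point rule, 11 of the exons passed the adjusted p alone: 8 lower in siQk (0.00949%), 1 higher and 2 with equal means. Over all exons over 27 nt, 0.0763% passed it lower and 0.0958% higher. None of the 11 passed when PSI itself was tested in place of the log ratio (limma adjusted p of 0.607 to 1). The 2 with equal means were Qk exons of 88 and 300 nt, at 100% in all 6 samples, with 38, 46 and 116 reads for the 88 nt exon in siQk and 639, 379 and 826 in siNT. Neither had a skipping read in any sample, so their log ratios (−3.30 and −3.34) carry the number of Qk reads and no difference in splicing. The adjusted p alone can thus follow read number in exons with few skipping reads. For that reason whole skipping reads are given beside each value, and these exons were picked out after their values were seen. Of the 5 exons shown as sequences, only Tmem134 passed with the pseudocount scaled to each sample's reads (limma adjusted p = 0.0333). App had 0.335 there, and Lsm4, Mpp2 and Akt1 had 0.629 each. With sampling variance weights, App (limma adjusted p = 0.00428) and Mpp2 (0.0466) passed. Tmem134 (0.169), Lsm4 (0.231) and Akt1 (0.622) did not pass with these weights.

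At Tmem134, skipping reads were found in siQk alone. PSI of its 77 nt exon was 96.04, 96.67 and 97.82 in siQk samples 1 to 3, against 100 in each siNT sample. The exon had 5, 3 and 7 skipping reads in siQk, of 242, 173 and 619 reads, and 0 in siNT, of 341, 235 and 546 reads. The log2 difference was −4.56 (SE 1.05, limma adjusted p = 0.00847), and the groups did not overlap. Without siQk sample 1, 2 or 3 the adjusted p was 0.127, 0.189 and 0.0599. The intron before this exon was retained in 16.5 ± 1.62% of transcripts in siQk and 21.1 ± 3.65% in siNT, a difference that did not pass (adjusted p = 1).

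App encodes the amyloid precursor protein, and its 54 nt exon, number 15 of 18 in the annotated transcript, is the exon known to be absent from the L-APP isoforms. PSI was 96.82, 97.65 and 97.95 in siQk samples 1 to 3, against 99.15, 98.62 and 98.94 in siNT samples 1 to 3. Every siQk sample was below every siNT sample. These values rest on 50, 27 and 73 skipping reads in siQk and 23, 23 and 39 in siNT, so depth was ample at 2267 or more reads per sample. Inclusion was lower by 1.43 points (log2 difference −1.22, SE 0.27, limma adjusted p = 0.00477), and the adjusted p was 0.137 without siQk sample 1, 0.236 without siNT sample 1 and 0.0667 without siNT sample 3.

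Lsm4, a subunit of the LSm ring of the U6 snRNP, had PSI of 98.64, 99.19 and 99.26 at its 42 nt exon in siQk samples 1 to 3, against 99.45, 99.92 and 99.73 in siNT. The groups did not overlap, but the difference was only 0.67 points (log2 difference −1.93, SE 0.44, limma adjusted p = 0.00761). Skipping reads were 18, 12 and 37 in siQk and 12, 1 and 9 in siNT. The adjusted p was 0.696 without siNT sample 2, where 1 skipping read was counted, 0.215 without siQk sample 1 and 0.0561 without siQk sample 2.

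Mpp2, a membrane-associated guanylate kinase scaffold, had PSI of 97.5, 96.89 and 96.11 at its 63 nt exon in siQk, against 98.75, 100 and 99.52 in siNT. Skipping reads numbered 3, 6 and 22 in siQk and 3, 0 and 3 in siNT. Inclusion was lower by 2.59 points with no overlap (log2 difference −2.98, SE 0.71, limma adjusted p = 0.0165). Ndfip1, an adaptor of Nedd4-family ubiquitin ligases, was lower by 1.82 points at a 106 nt exon, with 42 skipping reads in siQk and 21 in siNT and an adjusted p of 0.0496, just past the limit. Both lost the adjusted p when samples were left out. Without siNT sample 2 the adjusted p was 0.696 for both, without siQk sample 2 it was 0.235 for Mpp2 and 0.977 for Ndfip1, without siQk sample 3 it was 0.294 for Mpp2 and 0.117 for Ndfip1, without siNT sample 3 it was 0.0667 for Mpp2, and for Ndfip1 it was 0.0806 without siQk sample 1 and 0.1 without siNT sample 1.

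Akt1, a kinase of the insulin and growth factor pathway, was the exon higher in siQk. PSI of its 69 nt exon was 99.82, 100 and 98.93 in siQk samples 1 to 3, against 98.3, 98.38 and 98.54 in siNT. Skipping reads were 1, 0 and 13 in siQk and 17, 8 and 16 in siNT, so the siQk samples differed widely among themselves while remaining above siNT. Inclusion was higher by 1.18 points (log2 difference 2.78, SE 0.61, limma adjusted p = 0.00351). The adjusted p was 0.669 without siQk sample 2, 0.21 without siNT sample 1, 0.0965 without siNT sample 2 and 0.104 without siNT sample 3.

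The 3 remaining exons rest on few whole reads. In the deposited table some exons carry exclusion reads well above those that their junction reads give, and PSI computed from whole reads was within 0.5 points of the deposited PSI for 96.6% of values. Psat1, an enzyme of serine synthesis, had PSI of 98.83, 97.27 and 99.58 at a 70 nt exon in siQk, against 100, 99.94 and 100 in siNT, from only 2, 3 and 1 skipping reads in siQk and 0, 1 and 0 in siNT. Exo1, an exonuclease of DNA mismatch repair, had 89.56, 98.16 and 94.19 at a 213 nt exon in siQk, against 99.66, 100 and 99.65 in siNT, from 3, 2 and 3 skipping reads in siQk and 1, 0 and 1 in siNT. Xpo6, the nuclear export receptor of actin, had 95.31, 87.92 and 96.41 at a 78 nt exon in siQk, against 100, 100 and 94.96 in siNT, with 3 skipping reads in siQk and 2 in siNT, and its groups overlapped. Adjusted p was 4.69e-07, 0.000356 and 0.00236 for these 3 with the deposited reads and 0.926 for each with whole junction reads. From whole reads pooled over samples, PSI of the Exo1 exon was 98.6 in siQk and 99.7 in siNT, where the deposited means were 94 and 99.8. With single samples left out, Psat1 passed each time, Exo1 had an adjusted p of 0.171 without siQk sample 1 and 0.0612 without siQk sample 3, and Xpo6 had 0.522 without siQk sample 2, 0.174 without siNT sample 1 and 0.083 without siNT sample 2.

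**Figure D4:**
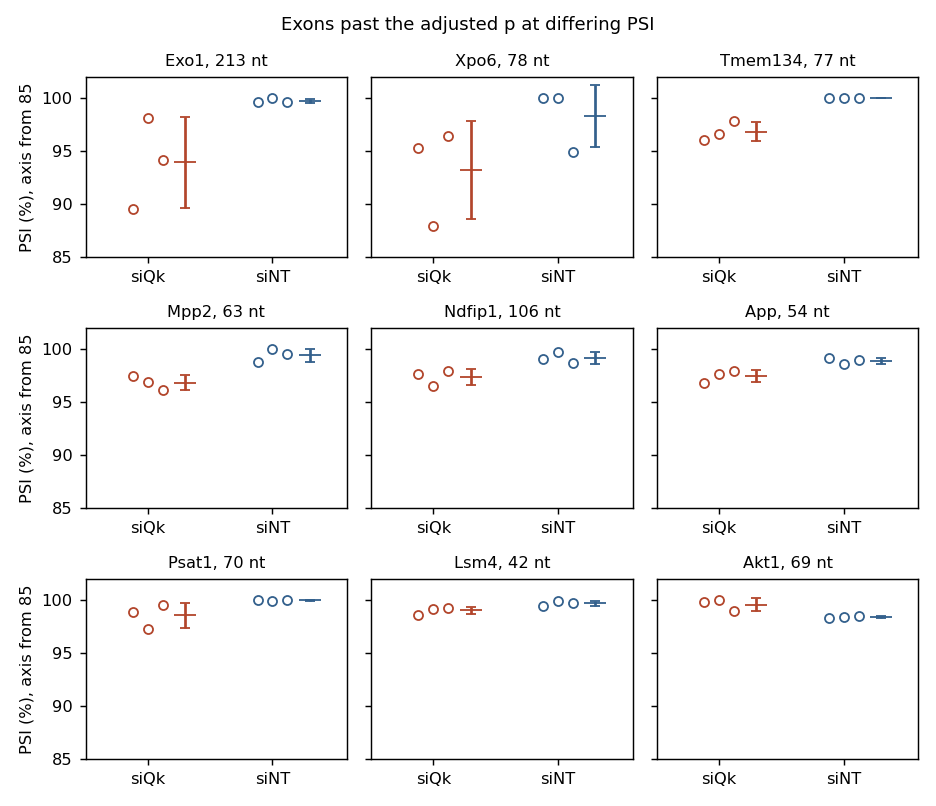
PSI in each sample (circles) with the mean and SD (bars, n = 3) for the 9 exons past the adjusted p whose means differed, siQk in red and siNT in blue, on an axis that starts at 85%. Differences ran from 5.8 points lower in Exo1 to 1.18 points higher in Akt1, and the groups overlapped in Xpo6 only.

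The exons with the largest differences had few reads. Mean PSI was at least 10 points lower in siQk for 13 exons in 12 genes (0.0154%, against 0.256% of all exons over 27 nt), and none passed the adjusted p. Their sample with the fewest reads had 10 to 31 reads, with a median of 14. Over all 3 siQk samples they had 4 to 11 skipping reads each, and the groups did not overlap in 6 of them. These exons were picked for low siQk means, and the matching share over all exons is not given. Nothing is therefore read from that count.

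Lyrm7, an assembly factor of respiratory complex III, had PSI of 100, 66.67 and 78.26 at a 73 nt exon in siQk, against 100, 100 and 95.56 in siNT. The mean was lower by 16.9 points, but siQk sample 1 had no skipping read, and adjusted p was 0.92. Fam151b had neighbouring exons of 218 and 136 nt with the same skipping reads, 5, 2 and 1 in siQk and 0 in each siNT sample. PSI of the 218 nt exon was 70.59, 81.82 and 97.1 in siQk, against 100 in each siNT sample, a mean lower by 16.8 points (adjusted p = 0.517), and the 136 nt exon was lower by 16.5 points (adjusted p = 0.88). Rasa4, a GTPase-activating protein for Ras, was lower by 14.7 points and RP23-363G20.2 by 14.2 points, with adjusted p of 0.92 and 0.908. The siQk samples 1 to 3 of Rasa4 were at 100, 58.75 and 93.73, so a single sample set its mean. The other 8 exons lay in Wdpcp, Prrg2, Adap1, 9930012K11Rik, Rdh5, Cep112, Flt3l and Artn.

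Exons with 100 reads or more in every sample, 49405 in all, are the most precise. Among them, 0 had a mean PSI 10 points lower, 3 had 5 points lower and 125 had 2 points lower. The largest difference was −6.11 points at a 126 nt exon of Rnf167, a ubiquitin ligase, which rests on a single skipping read: PSI was 81.68, 100 and 100 in siQk, against 100 in each siNT sample.

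**Figure D5:**
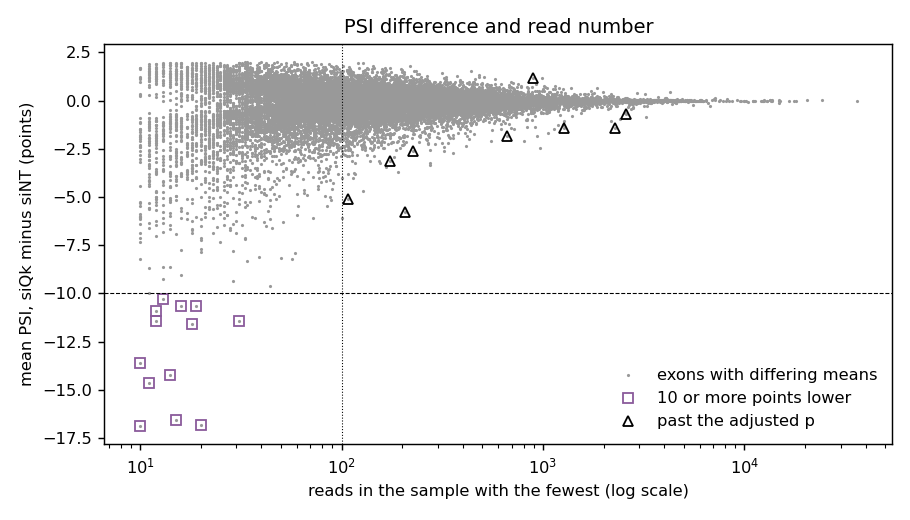
Difference of mean PSI, siQk minus siNT, against the reads of the sample with the fewest (log scale) for each nearly constitutive exon whose means differed. All 13 exons at least 10 points lower (squares, below the dashed line) have 10 to 31 reads in that sample; triangles mark the 9 exons past the adjusted p, and the dotted line marks 100 reads.

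Small differences were also found in exons with many reads. Of these 49405 exons, 57 in 56 genes had every siQk sample below every siNT sample and a mean at least 2 points lower (0.115%, against 0.559% of all exons over 27 nt of that depth). The mean was lower by a median of 2.45 points and by up to 5.8 points, in Exo1. Skipping reads ran from 5 to 104 in siQk, with a median of 15, and from 0 to 45 in siNT, with a median of 5. Only 3 passed the adjusted p (Exo1, Tmem134 and Mpp2). The 5.8 points of Exo1 rest on its deposited exclusion reads. From whole reads pooled over samples its PSI was 98.6 in siQk and 99.7 in siNT, and with whole junction reads its limma adjusted p was 0.926. The names given below were chosen after the values were seen.

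Dab2ip, a Ras GTPase-activating protein, had PSI of 94.57, 92.42 and 93.01 at a 134 nt exon in siQk samples 1 to 3, against 98.58, 98.86 and 96.6 in siNT. The mean was lower by 4.68 points, on 26 skipping reads in siQk and 10 in siNT (limma adjusted p = 0.583). Egfl7, a secreted protein of vessel formation, had the most skipping reads, 30, 18 and 56 in siQk and 18, 8 and 19 in siNT at a 111 nt exon. Its mean PSI was 95.7 ± 1.45 in siQk and 98.1 ± 0.627 in siNT (SD, n = 3 each, limma adjusted p = 0.0965). Ppie, a cyclophilin of the spliceosome, had 94.9 ± 1.3 in siQk and 98.1 ± 0.429 in siNT at a 44 nt exon (limma adjusted p = 0.849). Csnk2a2, a catalytic subunit of casein kinase 2, had 96.4 ± 1.06 in siQk and 99 ± 0.386 in siNT (limma adjusted p = 0.237). These exons share a small, non-overlapping difference that the test across all exons did not pass.

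Others had few skipping reads in siNT. Dusp12, a dual specificity phosphatase, had 4, 5 and 4 skipping reads in siQk and 0, 0 and 1 in siNT at an 83 nt exon, and PSI of 96.55, 94.19 and 98.36 in siQk, against 100, 100 and 99.51 in siNT (limma adjusted p = 0.0692). Nap1l4, a histone chaperone, had 5, 5 and 14 skipping reads in siQk and 2, 0 and 3 in siNT at a 31 nt exon (limma adjusted p = 0.218). Of the 57 exons, 4 had no siNT skipping read at all. Their lengths were divisible by 3 in 42.1%, against 38.3% of the exons of that depth.

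At any depth, every siQk sample was below every siNT sample in 794 exons (0.942%, against 1.63% of all exons over 27 nt), and above in 611 (0.725%, against 1.86%). A mean at least 5 points lower as well was found for 32 exons in 30 genes (0.038%, against 0.351%). Besides Exo1 they included exons of Fanci and Fancb, proteins of the Fanconi anaemia pathway, and of Nbn, part of the MRN complex at DNA breaks. The 103 nt exon of Fanci had PSI of 91.33, 89.02 and 85.18 in siQk, against 97.19, 100 and 97.21 in siNT, on 14 skipping reads in siQk and 2 in siNT (limma adjusted p = 0.92). The 144 nt exon of Fancb had 90, 90.32 and 92.31 in siQk, against 98.77, 100 and 97.52 in siNT (limma adjusted p = 0.315). Both were under 100 reads in some samples, and no more is read from their shared pathway, since they were picked after their values were seen.

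A 118 nt exon of Snap23, a SNARE protein of membrane fusion, had 86.41, 90.68 and 92.58 in siQk, against 98.15, 98.62 and 97.57 in siNT (16 skipping reads in siQk and 7 in siNT, limma adjusted p = 0.304). A 119 nt exon of Rgs10, a regulator of G protein signalling, had 85.32, 92.24 and 94.98 in siQk, against 96.98, 100 and 100 in siNT (limma adjusted p = 0.493). Removing either exon from its annotated transcript brings a stop codon more than 50 nt before the last exon junction, the usual distance for nonsense-mediated decay. For the exons of Fancb and Nbn the frame is kept.

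Of these 32 exons, 68.8% matched a wholly coding exon and 12.5% a partly coding one, against 90.6% and 3.28% of all nearly constitutive exons. Lengths divisible by 3 made up 40.6% of the 32, against 38.3% of all. Their median read number in the sample with the fewest was 29, against 128 for all, so they were of lower depth, and the part of depth in the annotation shares was not tested.

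Junction coverage passed the adjusted p in none of the genes of these 32 exons. It sums the reads on which the minimum of 10 in all 6 samples was set, so it is not fully independent of the choice. All 30 genes were tested, in a fit without a replicate block, and values with a block are not given for them. At an adjusted p under 0.05, 0 of them passed, while 457 of 10851 genes did (4.21%, with 2.76% higher and 1.45% lower). Their median log2 difference was 0.08, against 0.02 for all genes. The nearest were Crb2, a cell polarity protein, at 26 ± 3.09 CPM in siQk and 36 ± 1.92 CPM in siNT (limma adjusted p = 0.0544), and Fam151b, at 3.62 ± 0.222 CPM in siQk and 2.3 ± 0.147 CPM in siNT (SD, n = 3 each, limma adjusted p = 0.0551). Snap23 had 14.9 ± 3.19 CPM in siQk and 21.3 ± 1.56 CPM in siNT (limma adjusted p = 0.112). Of the genes with an exon past the adjusted p, Qk was the only gene whose coverage passed it. App had a limma adjusted p of 0.2 for coverage, Lsm4 0.21, Tmem134 0.441, Mpp2 0.73 and Akt1 0.64.

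The introns next to the 11 exons past the adjusted p were also measured. Of 20 with enough reads, 0 were called changed at the adjusted p and 10 points, and over all introns 19 of 101355 were called (0.0187%). The 2 past the adjusted p alone lie on either side of the 88 nt exon of Qk, with retention of 1.17 ± 1.11% in siQk and 0 ± 0% in siNT before it (limma adjusted p = 9.67e-05), and 1.64 ± 1.44% in siQk and 0.08 ± 0.139% in siNT after it (limma adjusted p = 0.0109; SD, n = 3 each). These Qk values share the drop in Qk reads described above. Elsewhere the largest difference was the 4.64 points of Tmem134.

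The gene lists gave no call. Among 40 splicing regulators there were 310 of the exons, and 185 (59.7%) had no skipping read in siQk. Among 49 cytoskeleton and adhesion genes 941 of 1235 exons (76.2%) had none, among 32 genes of endocytosis and traffic 304 of 482 (63.1%), and among 15 genes of nonsense-mediated decay 150 of 212 (70.8%). Over all nearly constitutive exons the share was 70.2%. In each list 0 exons were called, 0 passed the adjusted p in either direction, and the median difference was 0, as over all the exons. A mean 2 points lower or more was seen in 2, 3, 4 and 0 exons of these lists in the same order (0.645%, 0.243%, 0.83% and 0%, against 1.22% of all). The largest single differences were 4.18 points lower in Rbfox1, a splicing regulator of neurons and muscle, 5.07 points lower in Macf1, a linker of microtubules and actin, 2.92 points lower in Synj1, a phosphatase of synaptic vesicle endocytosis, and 1.16 points lower in Smg1, a kinase of nonsense-mediated decay. None of these 4 passed the adjusted p.

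The neuron table covers exons of up to 30 nt, which allows a look at the shortest of the exons in another cell type. Of 160 nearly constitutive exons of 28 to 30 nt, 133 were matched by position, with the authors' combined value per condition and no replicate values. In untreated neurons 96 of them (72.2%) were also above 98%, 16 were under 90% and 4 under 50%. The median was 99.5% with cycloheximide and 99.4% untreated. The 4 exons under 50% lay in Plekhj1 (11.1%), Atm (5.32%), Nop58 (0.25%) and Becn1 (0.0674%). Their siNT means in N2A cells were 100, 99.1, 100 and 98.5. Whether both tables measure the same splicing event at a matched position was not tested, so these 4 are not read as exons skipped in neurons. Between conditions, 5 exons differed by at least 10 points in the authors' deposited table with a probability of 0.9 or more. In the authors' deposited table, a 30 nt exon of Taf1d, a subunit of a transcription factor of RNA polymerase I, was at 80.4% with cycloheximide and 63.6% untreated, and a 28 nt exon of Rufy3, a regulator of axon growth, at 97.1% with cycloheximide and 76.2% untreated. The authors' deposited table puts a 29 nt exon of Atxn7l3, a subunit of the SAGA deubiquitinase, at 57.2% with cycloheximide and 72.1% untreated. In N2A cells the 3 exons had means of 100, 97.9 and 99.5 in siQk and 100, 99.6 and 100 in siNT. Neurons and N2A cells were processed in separate tables, so their levels are set side by side with no test.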

How the data were processed

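Splicing was measured by RNA sequencing of 6 N2A samples and 4 neuron samples. The main file's layout is that of vast-tools, and it holds the percent spliced in that the authors deposited per event and sample (per the file headers), and a quality cell in text form with the junction reads and the inclusion and exclusion reads. No source used here names the software. The submitters' processing notes name mm10 as the build. The neuron file holds, per the file headers, PSI as a deposited fraction per condition, replicates combined, and the authors' probability of a difference, a score from 0 to 1. Its depth is unknown. Which PSI column is untreated was read from the file's name, in which the control stands first.

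The members, lists and tests were chosen with earlier results of these data known. Exon events with 10 or more reads in all 6 samples, of any length and PSI, entered 1 fit of log2((inclusion + 0.5)/(exclusion + 0.5)) in limma 3.58.1 (R 4.3.3; robust, two-sided, with a variance trend on the log sampling variance averaged over samples, Benjamini-Hochberg over all). A call needs an adjusted p under 0.05 and 10 points. Introns were fitted likewise. Exon-event reads were summed per gene, which counts a read once per event, scaled to the sample total as CPM, and tested on log2(CPM + 0.5) by limma with a variance trend on the mean level, for genes with a mean of 20 reads or more; folds of low genes are understated. Exons were named by this rule: all called, the 5 largest falls not called, 3 on each side of the limit, and Qk (some are not reported here); other names were chosen after the values were seen. Sequences and frames come from GENCODE M21 by exact match of exon position. Scripts were tested on simulated data. The reads carry no molecular identifiers, so intervals cover counting error only. Python 3.11.15, pandas 2.3.3 and matplotlib 3.10.9 made the tables and plots. Samples of the same replicate number deviated together for numbers 1 and 3 and not for 2 (closing section), and a pairing needed all 3, so the fit has no block.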

Additional observations from a re-analysis of the deposited data

How the results depend on the processing

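The count of exons called skipped was 0 and remained 0 with each sample left out (0 to 0), with the replicate number as a block, on the PSI scale, with pseudocount 1, with 20 reads as the minimum, at 20 points, with a siNT limit of 99 and with each siNT sample above 98. It was 1 with sampling variance weights (Artn, 64.71% in siQk sample 1 and 100% in siQk samples 2 and 3), 2 at 5 points (Exo1 and Xpo6), 2 at 15 points with no p-value and no overlap (both Fam151b exons) and 6 with a siNT limit of 95. Calls over all exons over 27 nt were 57, and 50 to 58 with single samples left out; they were 11 on the PSI scale, 15 with the pseudocount scaled to the event reads and 91 at 15 points with no p-value. The count of nearly constitutive exons lower at the adjusted p alone, added after seeing the data, was 8, and 3 to 9 with single samples left out (3 to 6 of them among the 8), 38 with the replicate block, 4 on the PSI scale, 52 with sampling variance weights, 5 with the scaled pseudocount and 4 with whole junction reads; 0 of the 8 were among the 4 on the PSI scale, 4 among the 52, 1 among the 5 and 4 among the 4 with whole reads. The cause was not tested. The scaled pseudocount and whole reads were also chosen after seeing the data. Qk junction coverage passed under all 10 alternatives, from −3.03 to −2.71 (log2) with single samples left out, at an adjusted p of 1.07e-05 to 0.0111. For the 11 named exons past the adjusted p, 63 of 141 values under alternatives lost it, among them all 11 on the PSI scale, where both Qk exons were at 0; for the 5 that had not passed it, none of 61 did. No other value changed its sign. Deviations of samples with the same replicate number correlated at 0.241, −0.00971 and 0.202 for PSI and at 0.479, −0.136 and 0.48 for gene coverage for numbers 1 to 3. Numbers 1 and 3 thus deviated together and number 2 did not, so the samples were not treated as paired. The replicate block moved the calls over all exons from 57 to 79. Because 0 exons were called, coverage of genes with a called exon and introns beside called exons could not be computed, with or without alternatives. The limits given for a count of 0 hold only for the 70.2% of exons with no skipping read in siQk. They are not the smallest loss that the test could call, since the 13 exons at least 10 points lower were not called. Decay of transcripts without an exon was not measured.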
